A study of Mus musculus with 11 samples.

Results

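Chromatin accessibility was compared between basal and luminal epithelial cells sorted from terminal end buds (TEBs), the club-shaped growing tips of the ducts in the pubertal mouse mammary gland. The comparison took the 3 basal TEB and the 3 luminal TEB libraries of an 11-library ATAC-seq series and every merged peak with at least 1 count in these 6 libraries, which came to 153396 of the 153396 peaks with counts. ATAC-seq uses a transposase that cuts and tags open DNA, so the number of fragments in a peak is a measure of how accessible that stretch is. The other 5 libraries came from the ducts behind the TEBs and share no library with this comparison. All mice were C57BL/6 females of 5 weeks that carried an E-cadherin-GFP reporter, which guided the dissection. Basal TEB cells were sorted as Lin-, CD29+, CD24+ and low for the reporter, and luminal TEB cells as Lin-, CD29+, CD24+ and high for it, where Lin- removes blood, immune and endothelial cells. No transgene other than the reporter and no treatment is given. Each library came from a pool of mice, so that a value is an average over animals and over every cell state inside the gate.

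The mammary duct has an inner luminal layer, which holds hormone-sensing cells and the precursors of milk-producing cells, and an outer basal layer, whose mature cells contract like smooth muscle and lay down basement membrane. In the TEB the outer layer consists of cap cells, which become basal cells, around a mass of body cells. Promoters are open in many cell types, while enhancers, the distal elements that switch genes on in particular cells, are often open in one lineage and closed in another. A gene that specifies a lineage can be surrounded by many such elements.

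Of 153396 peaks, 25518 were more accessible in basal TEB cells (16.6%) and 31873 in luminal TEB cells (20.8%) by the exact test of edgeR at a false discovery rate (FDR) of 0.05. Most of them were distal, that is over 2.5 kb from the transcription start site (TSS) of any protein-coding gene. Of 128037 distal peaks, 22559 (17.6%) were higher in basal and 27654 (21.6%) in luminal TEB cells. Of 16630 promoter peaks, which lay within 0.5 kb of a TSS, 1730 (10.4%) were higher in basal and 2451 (14.7%) in luminal TEB cells. The luminal surplus at promoters depended on the processing, since loess offsets gave 2565 basal and 2335 luminal promoter peaks, a filter on low counts gave 2776 and 2036, and leaving out luminal TEB replicate 2 gave 1167 and 1384. The distal surplus depended on the processing too: offsets by GC content gave 24470 basal and 23013 luminal distal peaks, and loess offsets 24312 and 25250. Called distal peaks also differed by more: the median log2 fold change (basal over luminal, as throughout) was 2.04 for those higher in basal and -2.29 for those higher in luminal TEB cells, against 1.29 and -0.91 for called promoter peaks of single genes. A difference of at least 4-fold was seen at 52.2% of the basal-higher and 63.7% of the luminal-higher distal peaks, and at 16.8% and 8.28% of the gene promoters called in the same directions. These values cover called peaks only, and a peak with few counts passes the test only with a large difference. Called distal peaks were also narrower, with median widths of 470 and 411 bp against 1008 and 1159 bp for called gene promoters. The part of width and counts in the larger distal differences was not tested.

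**Figure D1:**
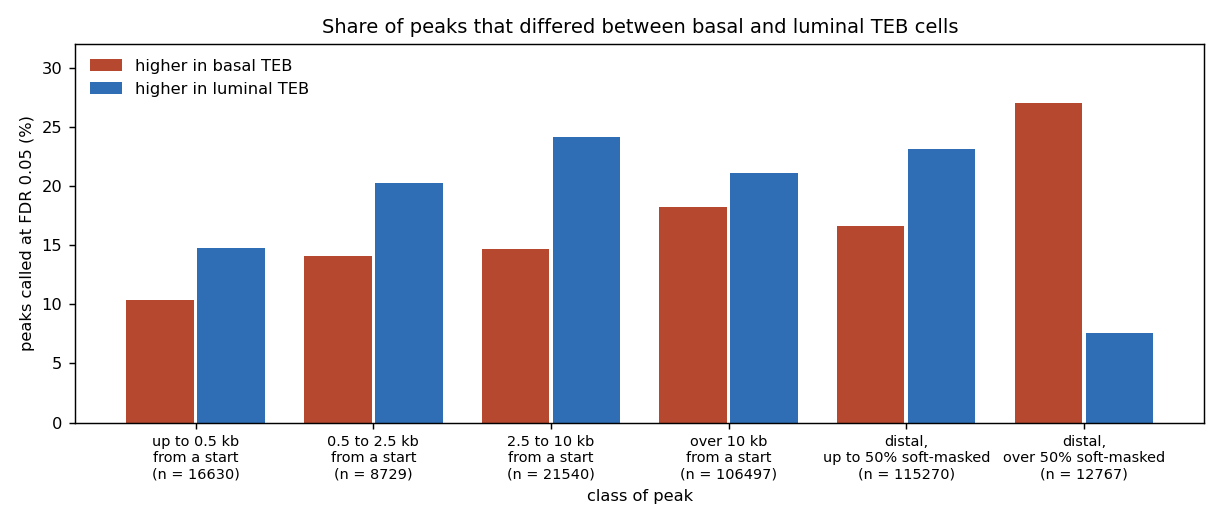
Share of peaks called at FDR 0.05 (%, vertical axis) by distance of the peak from the nearest protein-coding TSS and, for distal peaks, by soft-masked repeat content, with red bars for peaks higher in basal TEB and blue bars for peaks higher in luminal TEB cells (n gives the peaks per class). The shares were 10.4% and 14.7% within 0.5 kb and 18.2% and 21.1% over 10 kb, and the soft-masked class is the only one of the 6 shown in which the basal share (27.01%) is above the luminal share (7.60%).

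Basal and luminal libraries differed in depth. The basal TEB libraries held between 1821942 and 2489582 counts in peaks and the luminal TEB libraries between 2960093 and 3738324, with a median of 6 counts per peak in each basal and 9 to 10 in each luminal library. Peaks with over 50% of their bases soft-masked (marked as repeat in the reference) took 16.2%, 7.03% and 9.75% of the counts in basal TEB replicates 1 to 3 and 6.82%, 5.58% and 7.21% in luminal TEB replicates 1 to 3, so that the ranges overlapped (exact permutation test, two-sided p = 0.2, n = 3 and 3, for which the smallest possible p is 0.1). Peaks with over 80% of their bases soft-masked took 14.2%, 5.815% and 8.425% against 5.17%, 4.03% and 5.64%, so that with this threshold the ranges did not overlap (p = 0.1 by the same exact permutation test). Among distal peaks, 3448 of 12767 soft-masked peaks were higher in basal and 970 in luminal TEB cells, against 19111 and 26684 of 115270 others. Counts without soft-masked peaks are given below for the loci where they fell to 0 or turned the majority.

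The sorted cells carried the promoters that define their labels. At the promoter of Krt5, a keratin of basal cells, the CPM (a library's counts scaled to a common depth with TMM factors) were 6.77, 4.55 and 7.94 in the basal libraries, replicates 1 to 3, and 0.285, 0 and 1.04 in the luminal ones. At that of Krt14, its keratin partner, they were 9.89, 26.04 and 17.3 against 1.43, 1.70 and 3.46. The basal libraries lay above the luminal ones at both genes, with log2 fold changes of 3.83 ± 0.43 (SE between libraries, n = 3 and 3) and 3.04 ± 0.49 and FDRs of 9.6e-07 and 5.5e-11. Trp63, which encodes the basal master factor p63, had 3.06 ± 0.694 CPM (SD, n = 3) in basal and 0.535 ± 0.520 in luminal TEB cells (FDR = 0.0088, and 0.12 without luminal TEB replicate 1). Acta2, which encodes smooth muscle actin, had 60.4 ± 12.9 and 16.2 ± 2.97 CPM. Of the luminal check genes, Krt18 had 7.09 ± 0.482 CPM in basal and 27.7 ± 4.79 in luminal TEB cells, and Foxa1, a pioneer factor of hormone-sensing cells, had 5.50 ± 0.763 and 57.7 ± 10.4. Krt8, the partner of Krt18, differed by less, with 30.4 ± 7.32 and 48.3 ± 4.71 CPM, and its call (FDR = 0.022) was lost when any of 4 libraries was left out (FDR 0.06 to 0.12). Elf5, a factor of luminal progenitors, had 4.76 ± 1.71 and 5.82 ± 1.95 CPM at its promoter, which did not pass the test (FDR = 0.67).

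Sequences are shown here for a few distal sites as examples, each the called distal peak with the smallest p at its gene. The genes are Auts2, a single example from those with the most basal-higher peaks, and the 3 with the most luminal-higher peaks. Each sequence is the central 200 bases of the peak on the plus strand of GRCm38 (mm10), read from the RefSeq genome. Capitals mark a match to 1 of the motifs counted further on, SOX at Auts2, TEAD at Adgrl2 and FOX at Myc, and the Sox9 window holds no capitals because none was found there. The windows of Foxp1 and Gas8, which with Auts2 are the first 3 genes on the basal side, held no match either and are not shown. The sequences shown are as follows. They are chr5:132580027-132580226 in intergenic DNA 38 kb from Auts2, chr3:149037254-149037453 in intergenic DNA near Adgrl2, chr11:113101690-113101889 in intergenic DNA 319 kb from Sox9 and chr15:62017402-62017601 in intergenic DNA 29.7 kb from Myc.
Auts2 site, higher in basal TEB: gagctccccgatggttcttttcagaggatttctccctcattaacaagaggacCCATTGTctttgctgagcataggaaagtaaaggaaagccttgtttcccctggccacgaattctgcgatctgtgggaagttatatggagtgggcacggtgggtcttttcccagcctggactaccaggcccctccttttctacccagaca
Adgrl2 site, higher in luminal TEB: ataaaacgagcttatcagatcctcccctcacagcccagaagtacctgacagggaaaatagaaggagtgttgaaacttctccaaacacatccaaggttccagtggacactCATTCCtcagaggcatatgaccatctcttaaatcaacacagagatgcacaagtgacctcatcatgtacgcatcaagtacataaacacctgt
Sox9 site, higher in luminal TEB: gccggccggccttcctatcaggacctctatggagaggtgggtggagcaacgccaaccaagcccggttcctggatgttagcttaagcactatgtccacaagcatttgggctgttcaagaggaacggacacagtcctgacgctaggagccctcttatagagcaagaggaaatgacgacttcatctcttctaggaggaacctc
Myc site, higher in luminal TEB: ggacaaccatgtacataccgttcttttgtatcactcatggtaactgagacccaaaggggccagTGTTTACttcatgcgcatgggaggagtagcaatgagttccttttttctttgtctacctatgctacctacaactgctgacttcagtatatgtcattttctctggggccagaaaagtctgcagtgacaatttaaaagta

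The basal-higher site upstream of Auts2, whose product works with Polycomb proteins, had 31.75, 50.01 and 26.6 CPM in the basal and 5.71, 1.70 and 2.42 CPM in the luminal TEB libraries. The basal-higher site with the smallest p at Runx1, in an intron, had 22.9, 34.3 and 35.97 CPM against 5.99, 2.262 and 3.81. That of Ctnnd2, also in an intron, had 16.1, 18.6 and 21.95 CPM against 1.997, 0.848 and 2.08. At these 3 sites the lowest basal library was above the highest luminal library, with log2 fold changes of 3.44 ± 0.50, 2.94 ± 0.39 and 3.51 ± 0.30 and FDRs of 2.2e-20, 6.8e-17 and 7.1e-16. The luminal-higher site near Adgrl2, which encodes the adhesion receptor latrophilin-2, had 4.16, 1.65 and 3.27 CPM in the basal and 33.1, 53.2 and 44.0 CPM in the luminal TEB libraries. The site downstream of Sox9, a transcription factor of progenitor cells, had 4.16, 4.55 and 2.34 CPM against 72.2, 72.7 and 51.9, and that downstream of the growth regulator Myc had 0, 1.65 and 0.934 against 24.0, 19.5 and 29.4. The basal libraries lay far below the luminal ones at these 3 sites, with log2 fold changes of -3.86 ± 0.37, -4.13 ± 0.29 and -4.65 ± 0.53 and FDRs of 3.6e-25, 1.0e-33 and 1.4e-21.

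Lineage-biased distal peaks were counted per nearest gene. Of 16171 genes that were the nearest protein-coding gene of at least 1 distal peak, 1337 had 5 or more basal-higher peaks and 332 had 10 or more, while 1735 and 427 had as many luminal-higher peaks. The 10 genes with the most basal-higher distal peaks were Foxp1 (34 of 131), Auts2 (31 of 122), Gas8 (27 of 27), Runx1 (27 of 86), Ctnnd2 (27 of 44), Klhl29 (26 of 61), Zfp608 (26 of 80), Fam49a (25 of 47), Rhou (24 of 50) and Lpp (24 of 107). The 10 with the most luminal-higher peaks were Adgrl2 (42 of 127), Sox9 (38 of 119), Myc (35 of 114), Klf6 (32 of 75), Klf5 (29 of 50), Trps1 (29 of 80), Nrip1 (28 of 62), Pde4d (28 of 99), Ppp3ca (28 of 52) and Celf4 (27 of 80). The number of peaks near a gene also depends on how much sequence has it as the nearest gene: the farthest of these peaks lay 1231 kb from Klhl29 and 2232 kb from Celf4, and counting only peaks up to 100 kb from a TSS left 11 basal-higher peaks at Auts2, 7 at Ctnnd2 and 4 at Zfp608. On the luminal side it left 7 at Sox9, 4 at Trps1, 13 at Adgrl2 and 13 at Myc but 20 at Ppp3ca, so the order of the genes by count changed. The filter on low counts left 24 at Adgrl2. Which gene a distal peak acts on was not measured.

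**Figure D2:**
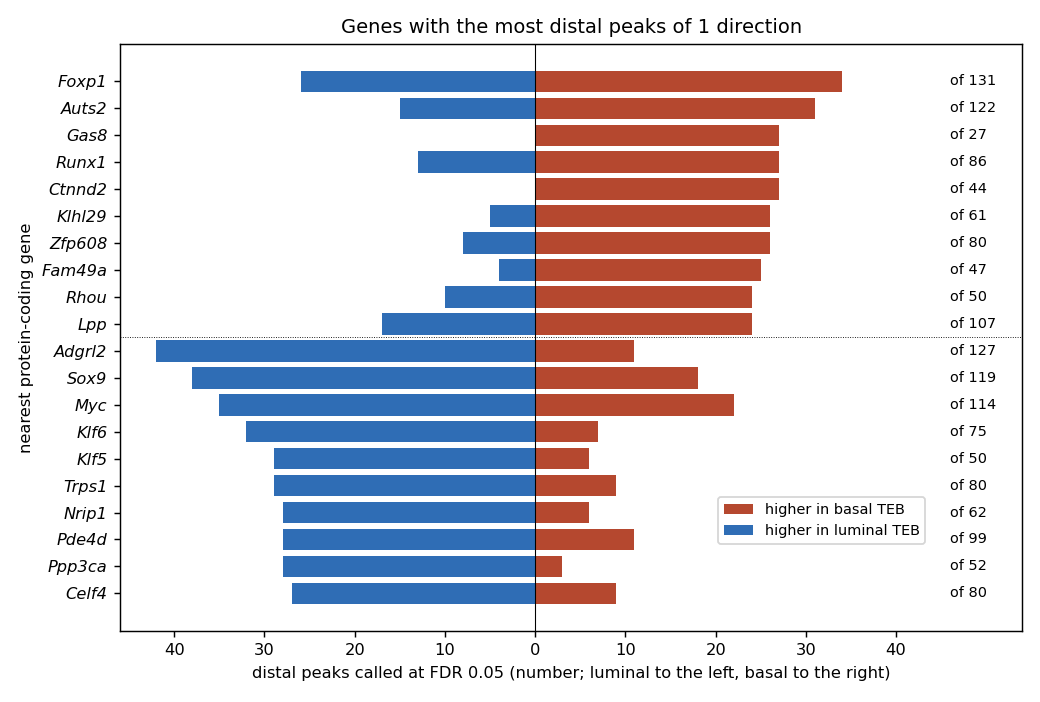
Number of distal peaks called at FDR 0.05 (horizontal axis) whose nearest protein-coding TSS belongs to each of 20 genes (vertical axis), with luminal-higher peaks to the left in blue, basal-higher peaks to the right in red and the number of distal peaks tested on the right. Ctnnd2 and Gas8 had no luminal-higher peak, whereas Foxp1 (34 and 26), Myc (22 and 35) and Sox9 (18 and 38) had many of both kinds.

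At Ctnnd2, which encodes the adherens junction protein delta-catenin, the whole locus was more open in basal TEB cells. Its 44 distal peaks, called or not, summed to 255.5, 270.3 and 299 CPM in the basal and 81.9, 68.7 and 74.1 CPM in the luminal TEB libraries, a 3.67-fold difference between the means. No distal peak of Ctnnd2 was called luminal-higher, although the log2 fold changes of peaks not called went down to -0.6. Of its 27 basal-higher peaks, 21 were not soft-masked. The Ctnnd2 promoter was also higher in basal cells (log2 fold change 1.45, FDR = 8.4e-06). At Klhl29, which encodes a kelch-domain protein, 61 distal peaks summed to 366, 460 and 410 CPM against 163, 155 and 177, with 26 basal-higher and 5 luminal-higher peaks and a basal-higher promoter (1.42, FDR = 5.9e-07). Its site with the smallest p, in an intron, had 38.8 ± 10.8 CPM in basal and 2.51 ± 1.13 CPM in luminal TEB cells (log2 fold change 3.93 ± 0.38, FDR = 5.0e-26). Without luminal TEB replicate 2 the count at Klhl29 was 17.

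Around Fam49a, whose product restrains Rac1, and its neighbour Mycn, a MYC family gene, lay an unbroken run of 13 neighbouring peaks over 198 kb of chromosome 12 that were all basal-higher (median log2 fold change 2.93). Fam49a summed to 256 ± 26.6 CPM (SD, n = 3) over 47 distal peaks in basal and 107 ± 5.80 in luminal TEB cells, and Mycn to 232 ± 32.7 over 36 peaks and 87.7 ± 2.097. The promoter of Mycn was basal-higher (log2 fold change 1.07, FDR = 0.019), a call that was lost by DESeq2 and without any 1 of 3 libraries (FDR 0.075 to 0.45, with 0.43 on the log2 scale without basal TEB replicate 2), while that of Fam49a did not pass the test (-0.32, FDR = 0.37). A run of 11 basal-higher peaks over 93.0 kb of chromosome 8 belonged to Nrg1, which encodes the ErbB ligand neuregulin-1. The 61 distal peaks of Nrg1 summed to 234, 398 and 336 CPM in the basal and 167.5, 173 and 158 CPM in the luminal TEB libraries, and none of the 11 peaks of the run was soft-masked.

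The longest basal-higher run was of another kind. It held 50 neighbouring peaks on chromosome 8, which gave Gas8 its 27 and Rhou its 24 basal-higher peaks apart from 1. All 50 were soft-masked, they recurred at a median spacing of 1.70 kb, and 45 of them overlapped 1 of the 51 rRNA genes of 119 bp annotated there, 41 of which are named as 5S rRNA genes. The 5S rRNA is the smallest RNA of the large ribosomal subunit and is made from tandem repeats. Together the 50 peaks had 2467, 859 and 1454 CPM in basal TEB replicates 1 to 3 and 491, 452 and 560 CPM in luminal TEB replicates 1 to 3, so that the basal libraries stood in the order of their soft-masked shares. With soft-masked peaks left out, no basal-higher distal peak remained at either gene, and their promoters did not pass the test (FDR = 0.58 for Gas8 and 0.75 for Rhou). All 50 were basal-higher in ducts as well (median log2 fold change 1.07), and at 47 the groups of TEB libraries did not overlap. The copies are repeats of one another and the sources used here do not say how reads were shared among them, so the 50 peaks are not separate measurements.

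Foxp1, Auts2, Runx1, Zfp608 and Lpp had basal-higher peaks among many that did not differ or differed the other way. Runx1, which encodes a core-binding factor that acts in both mammary lineages, had 27 basal-higher and 13 luminal-higher peaks, and its distal sums overlapped between the groups (463, 690 and 561 CPM against 471, 443 and 419). Its promoter had a log2 fold change of -0.03 (FDR = 0.98). Lpp, which encodes a focal adhesion protein, had 24 and 17 peaks, with sums of 382 ± 41.6 CPM in basal and 377 ± 13.8 in luminal TEB cells. The sums of Auts2 (576 ± 87.8 and 381 ± 20.97 CPM) and Zfp608 (384 ± 25.0 and 241 ± 13.6 CPM) did not overlap, and both promoters were basal-higher (log2 fold changes 0.78, FDR = 0.016, and 1.39, FDR = 0.011). Both promoter calls were lost by DESeq2 and when 1 of several libraries was left out (FDR 0.056 to 0.14 at Auts2 and 0.057 to 0.13 at Zfp608).

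On the luminal side, Klf5, a Krüppel-like factor of epithelial cells, had the highest share of luminal-higher peaks among the 10 genes named, 58% of its 50 distal peaks. These 50 summed to 222, 269 and 255.5 CPM in the basal and 432, 574 and 437.5 CPM in the luminal libraries. A site 177 kb from its TSS had 1.56, 1.65 and 0.934 CPM against 22.5, 27.7 and 24.9 (log2 fold change -4.13 ± 0.18, FDR = 4.8e-21). Its promoter was luminal-higher as well (-0.77, FDR = 0.0075, and 0.08 without luminal TEB replicate 2). Klf6, its paralog, had 32 luminal-higher and 7 basal-higher peaks, but a promoter log2 fold change of -0.11 (FDR = 0.77). Offsets by GC content gave 19 luminal-higher peaks at Klf5 and 21 at Klf6.

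Ppp3ca, which encodes the catalytic subunit of the phosphatase calcineurin, had 28 luminal-higher and 3 basal-higher peaks. Its 52 distal peaks summed to 97.9, 122 and 117 CPM in basal and 261, 287 and 282.5 CPM in luminal TEB cells, 2.46-fold between the means. The sums at Nrip1, a co-repressor of nuclear receptors that include the oestrogen receptor, were 238 ± 27.3 and 550 ± 75.7 CPM over 62 peaks. The promoters of Ppp3ca (-0.58, FDR = 0.027) and Nrip1 (-0.70, FDR = 0.0089) were luminal-higher, the first call being lost without any 1 of 4 libraries (FDR 0.082 to 0.13) and the second without luminal TEB replicate 2 (FDR = 0.062). For Sox9, Myc, Adgrl2, Trps1 (a GATA-type repressor) and Pde4d (a phosphodiesterase that degrades cyclic AMP), the promoter did not pass the test, with log2 fold changes between -0.16 and 0.07, although all 5 distal sums were higher in each luminal than in each basal library. Celf4, which encodes an RNA-binding protein, had the largest promoter log2 fold change of the 20 genes in either direction (-4.17, FDR = 8.2e-16).

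**Figure D3:**
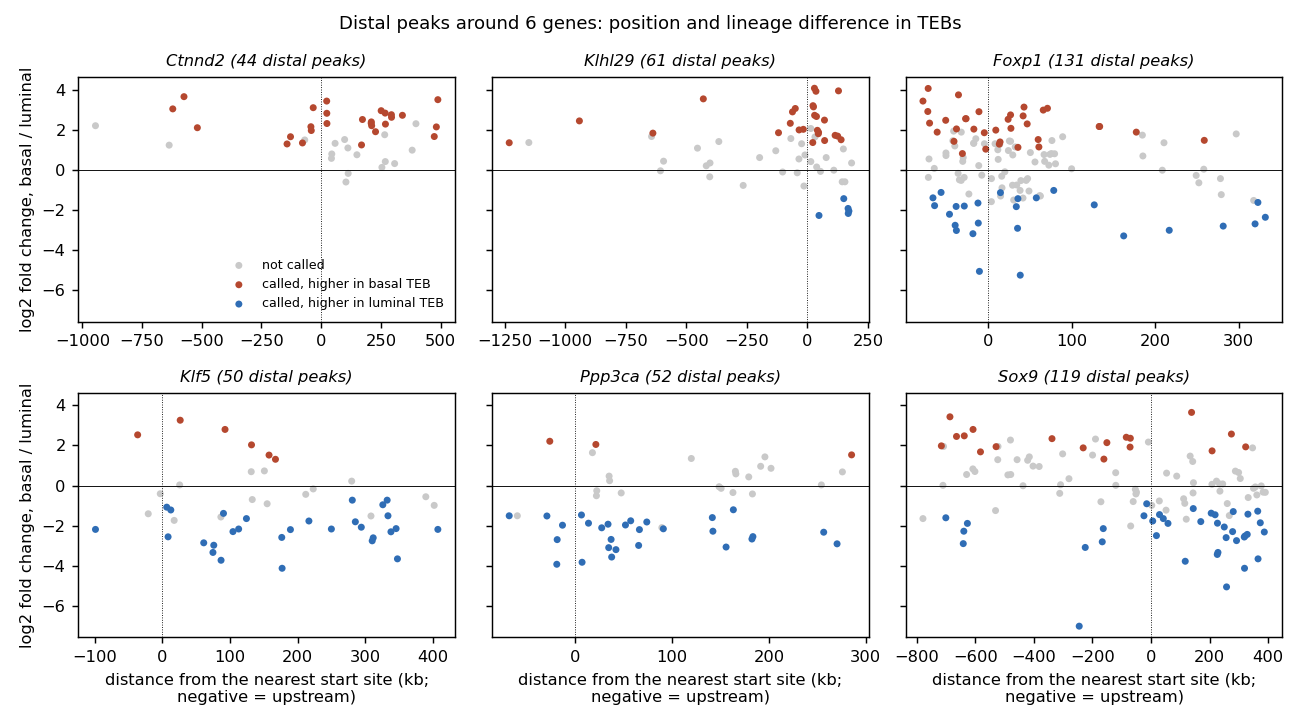
Log2 fold change (basal over luminal TEB, vertical axis) of every distal peak of 6 genes against its distance in kb from the nearest TSS of that gene (horizontal axis, negative upstream), with red points called basal-higher, blue points called luminal-higher and grey points not called. The points of Ctnnd2 lie almost all above 0 and those of Ppp3ca mostly below it, while Foxp1 and Sox9 have both kinds, and at Sox9 the basal-higher points lie mostly upstream and the luminal-higher points mostly downstream.

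Some loci leaned to 1 lineage over nearly all of their called peaks. Among 1247 genes with 10 or more called distal peaks, 68 had at least 90% of them basal-higher and 97 at least 90% luminal-higher. The genes named from these in the following, apart from Ctnnd2, Gas8 and Ppp3ca, were chosen after their values were seen. On the basal side were Bmp7, which encodes a secreted BMP ligand (22 basal-higher and 2 luminal-higher of 45), Tns1, a focal adhesion protein (22 and 1 of 82), Chst11, a chondroitin sulfotransferase (21 and 1 of 34), Slit3, a guidance ligand (19 and 2 of 46), Col4a2, a chain of basement membrane collagen IV (17 and 1 of 34), and Bcl11a, a zinc-finger repressor (19 and 0 of 44). Chst11 summed to 287, 426 and 291 CPM over its distal peaks in basal and 106, 81.1 and 94.5 in luminal TEB cells, a 3.56-fold difference between the means. On the luminal side were Sgms1, a sphingomyelin synthase (23 luminal-higher and 1 basal-higher of 37), St6galnac5, a sialyltransferase (21 and 1 of 32), Alcam, an adhesion molecule (23 and 2 of 44), Ptprj, a receptor phosphatase (23 and 1 of 38), Aff1, a subunit of the super elongation complex (19 and 0 of 25), and Fbxw11, a ubiquitin ligase subunit (24 and 2 of 37). Sgms1 summed to 89.5, 80.2 and 88.8 CPM in basal and 342, 378 and 354 in luminal TEB cells, 4.16-fold between the means.

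The luminal-higher runs were shorter than the 5S run, and their peaks over 50% soft-masked numbered 0, 1 and 0 in the order given here. A run of 17 neighbouring luminal-higher peaks over 61.2 kb of chromosome 3 had Gipc2 and Dnajb4 as nearest genes (log2 fold changes from -6.37 to -0.81). Runs of 13 and 12 peaks covered 66.8 kb of chromosome 11 next to Fbxw11 and Smim23 and 79.9 kb of chromosome 1 next to Teddm2 and Zfp648.

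Promoter and distal calls leaned the same way at most loci where both were made. Of 190 genes with at least 5 called distal peaks and at least 90% of them basal-higher, 158 had a promoter peak, and 72 of these promoters (45.6%) were basal-higher and 7 luminal-higher, against 9.32% and 14.9% of all 14886 gene promoters. Of 361 genes with at most 10% of their called distal peaks basal-higher, 317 had a promoter peak, of which 8 were basal-higher and 124 (39.1%) luminal-higher. The median promoter log2 fold change was 0.69 in the first class and -0.50 in the second. Promoter and distal peaks of a gene come from the same 6 libraries and are not independent of each other. Most promoters at such loci were not called: of genes with 3 or more called distal peaks and a promoter peak, 1819 had a basal and 2786 a luminal majority of distal calls, and the promoter had the same direction at 412 and 726, the opposite one at 188 and 157, and was not called at 3122.

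Opposed loci were led by Foxp1, which encodes a forkhead repressor and whose promoter was luminal-higher (log2 fold change -0.99, FDR = 0.0014) beside 34 basal-higher and 26 luminal-higher distal peaks, and Foxn3, another forkhead gene, with a promoter at -0.91 (FDR = 0.0016) beside 20 and 5. Map3k7, which encodes the kinase TAK1 (-1.05, 19 and 16 peaks), Btbd3 (-0.76, 19 and 15) and Etv6, an ETS repressor (-0.63, 17 and 8), were the others with the most peaks. With soft-masked peaks left out, the basal majority was lost at Map3k7 (11 and 16) and Btbd3 (14 and 15). In the other direction, Zbtb20, a zinc-finger repressor (2.35, 11 and 13), Flrt2, a membrane adhesion protein (1.81, 5 and 17), Utrn, which encodes the dystrophin relative utrophin (0.69, 4 and 20), Saraf, a regulator of calcium entry (0.72, 6 and 16), and Zfp462 (1.03, 10 and 12) had basal-higher promoters. Opposed refers here to the majority of called distal peaks, which was small at some of these loci. Over all distal peaks, called or not, the median log2 fold change had the direction of the promoter at Zbtb20 (0.25) and Btbd3 (-0.14). It was 0.0 at Zfp462 and opposed to the promoter at the other loci named. The promoter calls at Btbd3, Etv6, Utrn, Saraf and Zfp462 were lost when 1 of several libraries was left out (FDR 0.054 to 0.19), and those at Saraf and Zfp462 also by DESeq2. The loci with the most peaks of both kinds were Foxp1, Myc, Rbms3 (22 and 21 of 82), Maml3, a Notch co-activator (19 and 19 of 77), and Sox9.

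Promoters with the smallest p and groups that did not overlap were named in each direction. Groups did not overlap at 20.5% of all peaks with basal above luminal and at 27.1% with luminal above basal. The basal-higher promoter with the smallest p was that of Ankrd65, an ankyrin repeat gene, with 44.2, 59.1 and 44.4 CPM in basal and 4.85, 3.11 and 0.692 CPM in luminal TEB libraries (log2 fold change 4.03 ± 0.60, FDR = 9.5e-31). Tagln, which encodes the smooth muscle protein transgelin, had 30.2, 35.1 and 35.5 CPM against 2.85, 1.98 and 4.85 (3.40 ± 0.31, FDR = 2.0e-22). Pdk4, a kinase that shuts off pyruvate dehydrogenase, had 66.1, 109 and 74.3 CPM against 14.3, 12.7 and 12.5 (2.66 ± 0.22). Krt17, a basal keratin, had 21.9, 36.8 and 35.0 CPM against 4.57, 4.52 and 2.77 (2.96 ± 0.31). The lowest basal library was above the highest luminal library at each of them, which the rule for naming them required. The other basal-higher promoters named were those of Frmd4b (3.02), Sh3tc2 (3.08), Ak1, an adenylate kinase (2.56), Sulf1, a heparan sulfate endosulfatase (3.36), Stac2 (3.11), the T-box repressor Tbx2 (2.78), Bricd5 (2.86) and Adamts18, a secreted metalloprotease (2.76, log2 fold changes).

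The luminal-higher promoter with the smallest p was that of Foxa1, with 4.68, 6.20 and 5.61 CPM in basal and 47.7, 68.4 and 57.1 CPM in luminal TEB libraries (log2 fold change -3.37 ± 0.18, FDR = 4.1e-26). Krt19, a luminal keratin, had 3.12, 2.07 and 3.27 CPM against 31.4, 35.3 and 31.2 (-3.53 ± 0.17, FDR = 3.7e-21). Tlr4, the receptor for bacterial lipopolysaccharide, had 11.97, 11.98 and 8.41 CPM against 60.5, 69.6 and 64.0 (-2.58 ± 0.17), and Cldn8, a tight junction claudin, had 8.33, 7.44 and 8.88 against 45.4, 49.5 and 48.8 (-2.54 ± 0.08). The gap between the groups was several times the spread within them at all 4 genes, which were named for a small p and groups that did not overlap. The others were Rasef (-3.59), Svip, an inhibitor of protein degradation at the endoplasmic reticulum (-2.73), Arhgef38 (-3.05), BC030870 (-3.94), Sprr1a, a cornified envelope precursor (-3.99), the secreted protease Prss22 (-2.37), Ccdc149 (-2.81) and Tnip3, an inhibitor of NF-kappaB signalling (-3.09, log2 fold changes).

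**Figure D4:**
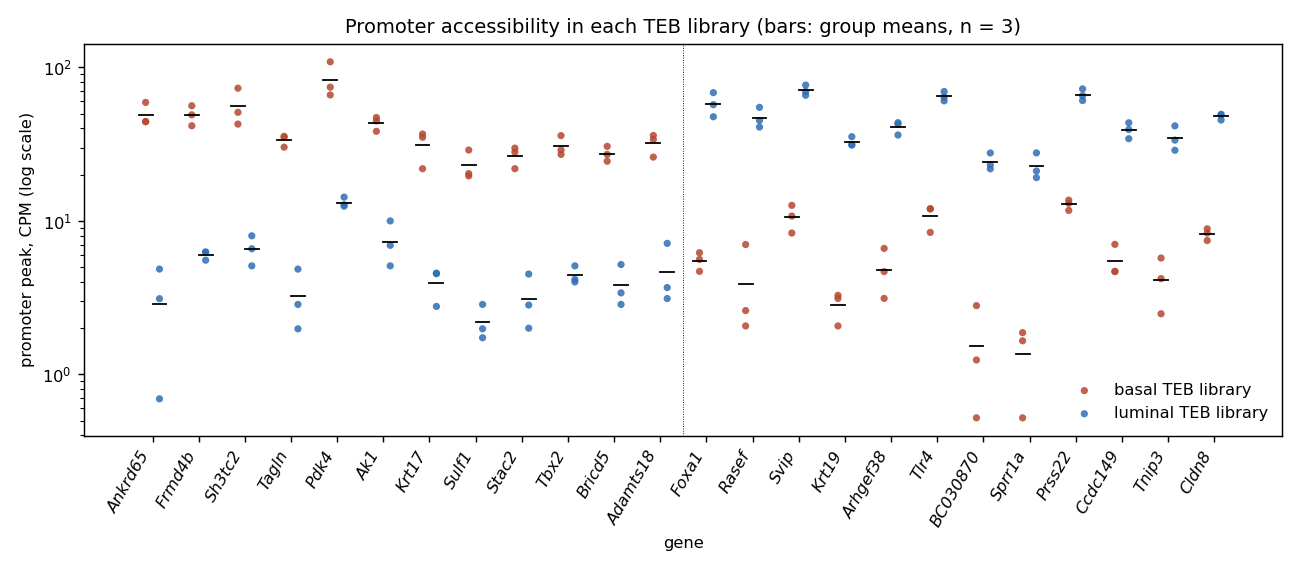
Promoter accessibility in CPM (vertical axis, log scale) of the 24 named promoters (horizontal axis), with a red point for each basal TEB and a blue point for each luminal TEB library and a black bar at the group mean (n = 3). Basal libraries lie above luminal ones at the 12 genes on the left and below them at the 12 on the right, with no overlap, which the rule for naming them required.

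The RefSeq promoter sequence (250 bases upstream of the gene's start, GRCm38.p6, read in the direction of the gene) is shown for 3 lineage genes where it lies in or overlaps the peak measured, 1 each for the contractile, basal keratin and luminal keratin groups. The window of Acta2 also lies in its peak and holds a TEAD match and no exact match to the CArG pattern searched (CCWWWWWWGG, W for A or T). Sequences close to that pattern, which this window holds, were not counted. Capitals mark a CArG box, the site bound by serum response factor, in Myl9 (chr2:156775214-156775463, plus strand) and a p63/p53 half-site in Krt5 (chr15:101712906-101713155, minus strand), and no motif searched was found in Krt18 (chr15:102027966-102028215, plus strand). Of 32817 such windows, 1.47% hold an exact CArG match and 7.12% a p63/p53 half-site.
Myl9 promoter: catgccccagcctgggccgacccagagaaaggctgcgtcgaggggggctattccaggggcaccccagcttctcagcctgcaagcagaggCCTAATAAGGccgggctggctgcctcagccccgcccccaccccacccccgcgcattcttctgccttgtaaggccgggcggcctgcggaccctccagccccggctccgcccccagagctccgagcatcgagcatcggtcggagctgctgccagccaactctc
Krt5 promoter: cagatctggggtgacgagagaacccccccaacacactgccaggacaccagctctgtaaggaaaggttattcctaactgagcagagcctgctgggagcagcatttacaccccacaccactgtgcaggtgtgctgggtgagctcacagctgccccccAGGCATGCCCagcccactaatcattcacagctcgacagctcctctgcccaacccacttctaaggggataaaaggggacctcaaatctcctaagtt
Krt18 promoter: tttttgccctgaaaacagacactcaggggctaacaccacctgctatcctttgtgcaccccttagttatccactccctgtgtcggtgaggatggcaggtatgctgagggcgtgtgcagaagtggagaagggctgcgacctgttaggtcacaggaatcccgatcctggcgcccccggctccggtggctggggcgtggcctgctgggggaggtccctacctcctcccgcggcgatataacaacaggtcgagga

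Groups of genes were described by the promoter peaks of their measured members, beside 9.32% basal-higher and 14.9% luminal-higher of all 14886 gene promoters, whose median log2 fold change was -0.09. Of 24 promoters of basal identity genes, 19 were basal-higher, 1 was luminal-higher and 4 did not pass (median 1.34). Krt17 and Il17b, a cytokine (27.6 ± 8.24 and 5.24 ± 1.49 CPM), led them, and the luminal-higher one was Jag1, a Notch ligand, at -0.61 ± 0.21, whose call was lost without any 1 of 5 libraries (FDR 0.054 to 0.17). Of 26 contractile and smooth muscle promoters, 12 were basal-higher and none luminal-higher (median 0.49), led by Tagln and Myl9, a myosin light chain, with 19.3, 21.1 and 24.8 CPM in the basal libraries and 3.03 ± 1.01 in the luminal ones. Of 24 promoters of basement membrane and integrin genes, 9 were basal-higher and 2 luminal-higher. Lamb1, a laminin chain, had a log2 fold change of 2.38 ± 0.16 and Nid1, which links laminin to collagen IV, of 2.99 ± 0.43, while the heparan sulfate proteoglycan gene Agrn (-0.89 ± 0.25) and Dst (-0.76 ± 0.20), which encodes a linker of hemidesmosomes to keratin, were luminal-higher. The Dst call was lost without any 1 of 3 libraries (FDR 0.058 to 0.13).

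Of 18 promoters of interstitial matrix genes, 13 were basal-higher and none luminal-higher (median 1.74), led by Fbn1, which encodes fibrillin-1 (28.1, 34.3 and 35.97 CPM in the basal libraries and 5.199 ± 2.24 in the luminal ones), and Sparc. These genes are also expressed by fibroblasts. Of 8 promoters of fibroblast markers 6 were basal-higher, and their summed level was 83.8 to 114 CPM in the basal and 24.9 to 29.1 CPM in the luminal TEB libraries. The lists share members, and 3 of these 8 promoters (Fbn1, Col5a1 and Col1a2, all basal-higher) are counted in both. Of the 5 others, 3 were basal-higher, with summed levels of 15.4 to 37.6 CPM in the basal and 13.4 to 13.85 CPM in the luminal TEB libraries. Fbn1 and Col5a1 had the highest levels among the 8 in the basal libraries, with 32.8 ± 4.14 and 29.4 ± 6.98 CPM. Pdgfra, a defining fibroblast marker, had 9.19 ± 3.55 CPM in basal and 8.39 ± 1.18 CPM in luminal TEB cells (FDR = 0.84), and Dcn had 2.299 ± 0.201 and 0.590 ± 0.478 CPM (FDR = 0.047, and 0.05 to 0.2 under the 9 alternatives that lost the call). The other basal-higher ones were Pdpn, with a log2 fold change of 2.66 ± 0.39 (FDR = 7.8e-05), and Thy1, with 2.49 ± 0.60 (FDR = 0.013, and 0.053 to 0.13 under the 4 alternatives that lost the call). In distal peaks, 23 of 160 near fibroblast markers were basal-higher and 27 luminal-higher. The part of other cells in the matrix promoters was not tested. Of the markers of other cells, 2 of 4 endothelial promoters were basal-higher (sums of 28.1 to 37.5 CPM in the basal and 11.3 to 14.9 in the luminal libraries), 1 of 4 immune promoters, that of Csf1r, was luminal-higher, 1 of 6 pericyte promoters was basal-higher and 1 of 4 keratinocyte promoters was luminal-higher, while none of 3 adipocyte and 5 Schwann cell promoters passed the test. The calls of the pericyte gene Pdgfrb (FDR 0.053 to 0.16), the keratinocyte gene Sbsn (FDR 0.084 to 0.086) and the endothelial gene Sox18 (FDR = 0.067) were lost under 6, 2 and 1 of the alternatives. These lists hold 13, 12, 12, 8, 9, 8 and 8 genes for fibroblast, endothelial, immune, pericyte, keratinocyte, adipocyte and Schwann cells, and the genes not counted had no promoter peak. No promoter counted was at 0 in all 3 libraries of a group.

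Of 25 pan-luminal promoters, none was basal-higher and 17 were luminal-higher (median -0.82). Krt19 led them together with Cldn4, a claudin with 6.245, 12.8 and 7.01 CPM in the basal libraries and 49.3 ± 10.02 in the luminal ones. Of 20 mature luminal promoters, 10 were luminal-higher and 2 basal-higher (median -0.63). Foxa1 and S100a6, a calcium-binding protein (-1.60 ± 0.23), led the first, and Greb1, an oestrogen target (1.68 ± 0.26), and Tnfsf11, which encodes the paracrine ligand RANKL (1.92 ± 0.45), were the 2 others. The Tnfsf11 call was lost without basal TEB replicate 3 (FDR = 0.082). Of 20 promoters of tight and adherens junction genes, 11 were luminal-higher and 1, that of the basal cadherin gene Cdh3 (1.05 ± 0.30), was basal-higher. That list includes Cdh1, whose product carries the reporter used for the sort. Of 16 promoters of luminal progenitor and secretory genes, 3 were basal-higher and 3 luminal-higher (median 0.11), among the latter Gjb2, whose call was lost without any 1 of 4 libraries (FDR 0.055 to 0.071). Plet1 had a log2 fold change of -2.61 ± 0.31, the casein gene Csn3 of 1.75 ± 0.52, and Kit, the receptor that marks luminal progenitors, of 0.85 ± 0.38 in the basal direction, a call that was lost without basal TEB replicate 2 (0.39, FDR = 0.44), without any 1 of the 3 luminal libraries (FDR 0.078 to 0.23) and by DESeq2 (FDR = 0.14).

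Distal peaks of the basal and luminal groups leaned the same way as their promoters, beside 17.6% basal-higher and 21.6% luminal-higher of all distal peaks. Near basal identity genes 31.4% of 493 distal peaks were basal-higher and 10.8% luminal-higher, and near basement membrane and integrin genes 36.3% and 16.7% of 419. Near pan-luminal genes 8.73% of 332 were basal-higher and 41.3% luminal-higher, and near mature luminal genes 9.93% and 34.1% of 302. Single genes had the most: Pard3, a polarity gene of the junction list, had 24 basal-higher and 6 luminal-higher of 77, Gata3, the luminal fate factor, had 20 luminal-higher and 7 basal-higher of 75, and Msx2, a homeobox gene of mature luminal cells, had 16 and 0 of 43. The keratin, Trp63 and Foxa1 loci used as checks leaned with their label, with 10 of 12 distal peaks at Foxa1, 8 of 10 at Krt18 and 6 of 9 at Krt8 luminal-higher, and 3 of 4 at Krt5, 3 of 3 at Krt14 and 10 of 34 at Trp63 basal-higher. The distal peaks of Krt18 summed to 25.5, 37.6 and 35.0 CPM in basal and 185.5, 209.5 and 181 CPM in luminal TEB cells, 5.87-fold between the means, and at Krt8, whose promoter differed little, the distal sums were 70.0 ± 19.6 and 190 ± 24.8 CPM.

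Of 39 promoters of lineage transcription factors, 9 were basal-higher and 4 luminal-higher (median -0.03). Egr3, an immediate-early factor (2.24 ± 0.20), and Tbx2 led the basal and Foxa1 and Ehf, an epithelial ETS factor (-2.89 ± 0.39), the luminal direction. Their 1336 distal peaks were 22.2% basal-higher and 20.5% luminal-higher. Of 30 promoters of the Wnt pathway, in which secreted ligands act through Frizzled receptors and beta-catenin, 8 were basal-higher and 2 luminal-higher, with Lgr6, an R-spondin receptor (2.34 ± 0.17), and the secreted protein Dkk3 (2.35 ± 0.23) in the first direction. The ligand gene Wnt4 (-1.09 ± 0.26) and the receptor gene Fzd4 (-0.65 ± 0.22) were in the second, and both calls were lost when 1 of several libraries was left out (FDR 0.051 to 0.093). Of 21 Notch pathway promoters, 3 were basal-higher, among them the ligand genes Dll1 (2.00 ± 0.32) and Jag2 (1.94 ± 0.30), and 3 luminal-higher, among them Nrarp, a feedback inhibitor (-0.78 ± 0.08), whose call was lost without luminal TEB replicate 1 (FDR = 0.059). Of 30 cell cycle promoters, 2 were basal-higher and 1 luminal-higher, and the calls of Top2a (FDR 0.051 to 0.15) and Ccne2 (FDR 0.07 to 0.15) among them were each lost under 4 alternatives. Ccnd2, which encodes cyclin D2, had 12.5, 21.5 and 9.81 CPM in the basal libraries and 1.64 ± 0.688 in the luminal ones (3.15 ± 0.42). Of 28 housekeeping promoters, 1 was basal-higher and none luminal-higher (median 0.02), and that call, at Polr2a, was lost under 6 alternatives (FDR 0.052 to 0.16).

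Motif content separated the 2 sets of distal peaks. Matches were counted on both strands of the central 200 bases. AP-1 sites (TGANTCA) were found in 36.8% of 27654 luminal-higher and 12.3% of 22559 basal-higher distal peaks, against 23.7% of all 128037. FOX sites (TGTTTAC), the class bound by forkhead factors such as the one Foxa1 encodes, were found in 11.5% and 1.31%, against 5.38%, an 8.79-fold ratio of luminal to basal, and an oestrogen response element in 0.192% and 0.0222%, against 0.0968%. GRHL sites (AACCNGTT), bound by the epithelial Grainyhead-like factors, were found in 3.54% and 1.72%, against 2.503%, RUNX sites (TGTGGTT) in 6.77% and 4.69%, against 6.14%, and GATA sites (AGATAAG) in 2.99% and 1.81%, against 2.43%. On the basal side, SOX sites (ACAATGG) were found in 5.71% of basal-higher and 3.20% of luminal-higher peaks, against 4.06%, the p63/p53 half-site (RRRCWWGYYY, called p63 below) in 11.1% and 7.66%, against 8.48%, TEAD sites (GGAATG) in 18.01% and 14.3%, against 16.5%, NFI sites (TTGGCA) in 18.7% and 14.9%, against 16.5%, and the CArG box in 1.53% and 0.984%, against 1.08%. The E-box CAGCTG (12.5% and 13.1%, against 13.3%) and TFAP2 sites (GCCNNNGGC, 8.20% and 8.62%, against 8.28%) were found at like shares in both.

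**Figure D5:**
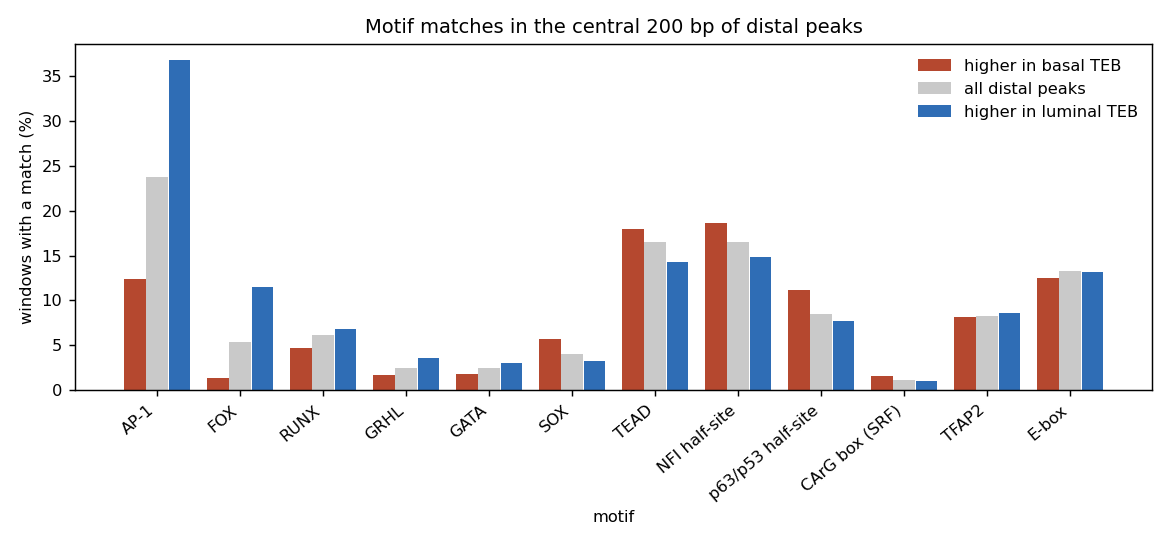
Share of distal peaks whose central 200 bp hold a motif match (%, vertical axis) for 12 motifs (horizontal axis), with red bars for basal-higher, grey for all and blue for luminal-higher distal peaks. AP-1 (12.3%, 23.7% and 36.8%) and FOX (1.31%, 5.38% and 11.5%) bars rise from red to blue, and SOX, TEAD, NFI, p63 and CArG bars fall.

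The shares with soft-masked peaks left out were 14.1% and 36.4% for AP-1, 1.41% and 11.5% for FOX, 5.07% and 3.09% for SOX and 12.2% and 7.64% for p63 in basal-higher and luminal-higher distal peaks, so that each kept its direction. ELF5-type ETS sites (AGGAAGT) were found in 5.14% of basal-higher and 7.29% of luminal-higher distal peaks, ETS sites (CCGGAAGT) in 0.186% and 0.336%, STAT5 sites (TTCNNNGAA) in 6.69% and 7.08%, CTCF sites in 0.807% and 0.665%, steroid receptor elements in 0.448% and 0.608% and EGR sites (GCGTGGGCG) in 0.115% and 0.0362%. The full NFI palindrome was found in 8 and 15 peaks. At promoter peaks, FOX sites were found in 2.98% of luminal-higher and 0.694% of basal-higher peaks, against 1.43% of all 16630, and CArG boxes in 0.571% and 1.33%, against 0.607%. A peak can hold matches to several of these sites, and a match is not a measurement of binding.

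The same peaks could be read in the duct libraries, none of which entered the TEB comparison. In ducts 31.8% of peaks were basal-higher and 36.6% luminal-higher by the same test. Of the 27654 luminal-higher distal peaks of the TEB, 90.8% were luminal-higher in ducts too, which was 48.8% of the duct list, and 1.18% went the other way. Of the 22559 basal-higher distal peaks, 73.3% were basal-higher in ducts, which was 43.1% of the duct list, and 4.94% went the other way. In all distal peaks the shares in ducts were 40.2% luminal-higher and 29.96% basal-higher. In all promoter peaks they were 12.04% luminal-higher and 43.8% basal-higher. At called promoter peaks, 90.3% of 1730 basal-higher TEB promoters were basal-higher in ducts (21.4% of the duct list), and 43.7% of 2451 luminal-higher TEB promoters were luminal-higher there (53.4% of the duct list). The basal duct libraries were deeper, with 6816197 and 9986384 counts, and 2 in number. The median log2 fold change of luminal-higher TEB promoter peaks was -0.99 in TEBs and -0.28 in ducts, while that of luminal-higher distal peaks was -2.29 and -3.06. A test of the difference between the TEB and the duct contrast was passed by 14.0% of 126832 peaks with enough counts, and by 12 of the 51 peaks named here. Most of those 51 were named for a small p in TEBs, so these shares cannot be compared.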

How the data were processed

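Per the paper's methods and the labels, the authors trimmed adapters, mapped paired reads to mm10 with Bowtie2 (2.3.4.3 per the submitters' processing notes), removed duplicates, called peaks with MACS2 on pooled replicates of each population, merged them, removed blacklisted regions and counted reads per peak. The deposited values are these raw counts, whole numbers with no normalisation. Whether cut sites were shifted for the transposase is not stated in the sources used here. Because peaks were called per population and pooled over replicates, peaks of the deeper populations are more likely to be in the list. One basal duct replicate was not analysed here.

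Counts of the 3 basal and 3 luminal TEB libraries were scaled by TMM and compared by the exact test of edgeR 4.0.16 (R 4.3.3) with Benjamini-Hochberg adjustment over all 153396 peaks, the test the study's methods name. All FDRs of the TEB and duct contrasts are from this test. The interaction of lineage and structure used the quasi-likelihood test of edgeR over 11 libraries. Fold changes are the estimates of the tests themselves. SEs come from log2 CPM of the libraries with a prior count of 2, and CPM means are given with their SD. That prior count draws low values together, so an SE can be too small for its fold change at peaks with few counts. Total counts of 1821942 to 3738324 per library limit the precision at peaks with few counts. Start sites were the 41421 of 21840 protein-coding genes in the GENCODE basic set, and a peak was assigned to the nearest one. A promoter peak of a gene was its peak within 0.5 kb with the highest mean level.

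Genes were named by rule: the 10 with the most distal calls per direction and the best site of each, the 12 promoters per direction with the smallest p and no overlap between groups, the 5 with most calls of both kinds, the 5 per direction whose promoter and distal calls oppose, the 2 members per list and direction with the smallest promoter p, the member with most distal calls, the 3 longest runs, and 8 check genes. The members, lists and rules were chosen with earlier results of these data known. List members described by distal counts were selected from those the rule names. Motifs were matched on both strands of the central 200 bp. The test was run on simulated counts with the same dispersion at every peak and changes at only a few well-counted peaks. Whether it finds differences at weak peaks, or holds where many peaks differ, was not checked. Alternatives were the quasi-likelihood test with and without a replicate block, DESeq2 1.42.0, other scalings, loess and GC offsets, filters and leaving out each library. Some sites that the rule names are not reported here.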

Additional observations from a re-analysis of the deposited data

Results flagged for a closer look

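At 12 of the 51 named peaks the basal-over-luminal log2 fold change differed between TEBs and ducts by the quasi-likelihood interaction test of edgeR (FDR 0.05), against 14.0% of all peaks tested. Most of the 51 were named for a small p in the TEB contrast, and the interaction test uses the same TEB libraries. That choice favours peaks with a larger difference in TEBs, so the shares cannot be compared. The check genes Krt14, Krt18 and Elf5 were not named by their p. Values are the TEB minus the duct log2 fold change, with the number of 13 alternatives that kept the call.

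At 5 peaks the call was kept in 13 of 13 alternatives. The Krt14 promoter, a basal keratin, had log2 fold changes of 3.04 in TEBs and 5.6 in ducts, a difference of -2.51 (FDR = 0.0047). The Krt19 promoter had -3.53 and -1.48, a difference of -2.05 (FDR = 0.00048), and that of Tlr4 had -2.58 and -0.87, a difference of -1.7 (FDR = 9.5e-05). The Prss22 promoter had -2.37 and -1.26, a difference of -1.1 (FDR = 0.0071). The distal site of Klf5 had -4.13 and -2.12, a difference of -2.02 (FDR = 0.0054).

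The other 7 calls were lost under some alternatives. The Krt18 promoter differed by -1.19 (FDR = 0.013, 11 of 13 alternatives), that of Arhgef38 by 1.42 (FDR = 0.021, 9 of 13) and the distal site of Celf4 by 1.16 (FDR = 0.018, 9 of 13). The promoters of Krt17 (-1.4, FDR = 0.016) and Elf5 (1.83, FDR = 0.028) kept the call in 8 of 13 and that of Tnip3 (1.52, FDR = 0.029) in 7 of 13, with FDRs over the alternatives of 0.0051 to 0.064, 0.0087 to 0.23 and 0.0048 to 0.14. The Svip promoter (-0.82, FDR = 0.047) kept it in 3 of 13 (FDR 0.039 to 0.26). At Elf5 the log2 fold change was -0.33 in TEBs and -2.17 in ducts. Scaling by promoter peaks moved the median difference of all peaks from 0.05 to 0.44 and the peaks higher and lower in TEBs from 9560 and 8202 to 16000 and 3396, and under it the calls at Krt17, Svip and Krt18 were lost. Duct and TEB libraries also differ in depth, whose part in these differences was not tested.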

How the results depend on the processing

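DESeq2 called 16915 peaks and 14925 distal peaks higher in basal TEB cells, against 25518 and 22559. A filter on low counts left 71137 peaks and gave 2776 basal-higher and 2036 luminal-higher promoter peaks, so basal calls were 57.7% of promoter calls in place of 41.4%, as they were 52.3% with loess offsets and 51.2% without soft-masked peaks. The median log2 fold change of all peaks moved from -0.07 to 0.04 with loess offsets. GC offsets gave 27303 basal-higher and 27396 luminal-higher peaks, and turned the distal majority, with 24470 basal-higher and 23013 luminal-higher distal peaks. Leaving out 1 library gave 14983 to 22277 basal-higher distal peaks (lowest without luminal TEB replicate 2), 1384 to 3027 luminal-higher promoter peaks (highest without basal TEB replicate 2), and 6 to 20 named peaks past the interaction test, with 6 without basal duct replicate 1, 7 without luminal TEB replicate 1 and 20 without basal TEB replicate 2. Over all peaks, 70.2% of the calls were kept by DESeq2, 71.3% without luminal TEB replicate 2 and 98.2% at most. Of the peaks run, all 318 alternatives at 20 distal sites kept the call, which their choice by smallest p made likely in advance. At 68 promoters of the promoter, list and check genes, 57 of 1085 lost it. At 36 further promoters, of the distal loci and fibroblast markers, 51 of 573 lost it and 1 gained it (Maml3, FDR = 0.037 without basal TEB replicate 2), in alternatives chosen after seeing the data. No called value at these peaks changed direction, while the majority of distal calls turned at Map3k7 and Btbd3 without soft-masked peaks. Distal counts per gene moved by over 1.5 times with the filter, with GC offsets (18 luminal-higher peaks at Pde4d) and within 100 kb, and without luminal TEB replicate 2 at Zfp608 (16). The quasi-likelihood test gave 24961 basal-higher and 31201 luminal-higher peaks, and with a replicate block 21658 and 29470. Same-numbered libraries were not treated as paired, since their deviations correlated at 0.0168, 0.0344 and 0.0109, although each basal library correlated best with its own number, which is a hint only. The median of 6 counts per peak in basal libraries limits what can be detected at single weak peaks.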

Other observations

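Peaks on chromosome Y leaned to basal TEB cells. Of 118 peaks there, 46 were basal-higher and none luminal-higher by the exact test, and 103 were soft-masked. They held 1602, 1356 and 897 counts in the basal and 891, 1191 and 790 counts in the luminal TEB libraries, not scaled for depth, which was lower in the basal ones. The duct libraries held 722 to 1293 counts there, so counts on this chromosome were found in every library. The study's methods describe the mice as females.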
